A study of Homo sapiens with 24 samples.

Results

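Residual medium is the culture fluid that remains once extracellular vesicles have been isolated, and in this RNA-seq study it served as the negative control for vesicle treatment. The question here is in which genes 2 pancreas cell lines, HPNE and HPDE, answered that control differently. For each gene the response of a line is its mean in residual medium minus its mean in untreated cells, on the log2(FPKM + 1) scale, where FPKM is a read number corrected for how long the gene is and how deeply the library was read. The line difference is the HPDE response minus the HPNE response, so a positive value means that the gene went higher, or fell less, in HPDE. Genes entered by rule if their mean was at least 1 FPKM over the 12 libraries of HPNE and also over the 12 of HPDE, which 10483 of the 48162 listed genes did. At that limit, CTHRC1 (201.3 FPKM in HPNE and 1.00 in HPDE) and FAM171A1 (8.52 and 1.00) were just inside, while ZNF583 (0.9998 and 1.29) and DHRS13 (0.999 and 1.94) were just outside.

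The 4 groups compared were untreated HPNE, HPNE in residual medium, untreated HPDE and HPDE in residual medium, with 3 libraries each, labelled as biological triplicates. HPDE-H6c7 comes from normal duct epithelium of the pancreas and is immortal in culture; hTERT-HPNE comes from normal pancreas and owes its long life in culture to an added telomerase gene. Each is 1 established line, so what is described as a difference between lines is a difference between these 2 cultures. Both were grown in keratinocyte serum-free medium with penicillin and streptomycin, then kept for 24 h in fresh serum-free medium (untreated) or in the residual medium. The labels do not say from which cells' vesicle isolation the residual medium came. The other 12 of the 24 libraries, from the same lines given vesicles of PANC-1 or PPCL-68 cells, entered the model only to estimate the spread. They also counted in the 1 FPKM rule, so a gene could pass it through them. The p-values measure the spread between these libraries.

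Medium in which cells have been kept carries proteins and metabolites that those cells released and lacks nutrients that they used. Cells answer inflammatory cytokines largely through NF-kB, a family of transcription factors held inactive by inhibitor proteins until receptor signalling frees them. Its targets include chemokines that attract neutrophils, adhesion molecules, anti-apoptotic proteins and its own inhibitors. Growth factors act through receptor tyrosine kinases and the ERK kinases, which switch on immediate-early genes and lead cells into DNA replication and mitosis.

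Several properties of the libraries bear on all results. Reads assigned to genes numbered 30169822 to 42939612 over the 12 libraries. The third HPNE replicates stood apart from their mates. The root mean square log2 distance of untreated HPNE replicate 3 to its mates reached 0.334, against 0.143 between those mates, and the distance of HPNE residual medium replicate 3 to its mates was 0.455 to 0.460, against 0.138. This library was nearer to the HPNE libraries given PANC-1 vesicles (0.394 to 0.401) than to its own group. It was kept under its label, and whether that label is right was not tested. The 6 HPDE libraries lay 0.133 to 0.169 apart within a group and 0.225 to 0.267 apart between groups. For some of the results that rest on the third HPNE replicates, values without them are also given. The duct epithelial markers (EPCAM, KRT19, KRT7, KRT8, KRT18, CDH1, CLDN4 and CLDN7) summed to 2796 to 3554 FPKM in HPDE libraries and to only 4.70 to 13.1 FPKM in HPNE libraries, where EPCAM and CDH1 stayed under 0.2 FPKM. The 7 genes chosen for HPNE (TERT, VIM, CDH2, ZEB1, COL1A1, COL1A2 and SPARC) summed to 4650 to 7926 FPKM in HPNE and to 94.5 to 108 FPKM in HPDE. Acinar and endocrine markers were at or near 0 in all 12 libraries, and 6 leukocyte markers summed to 0.688 to 2.90 FPKM.

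The 2 lines answered residual medium differently in many genes, and HPNE moved further. The line difference passed the test in 3995 of the 10483 genes (38.1%), with 2038 (19.4%) higher in HPDE and 1957 (18.7%) lower in HPDE. Among the same genes, 2058 (19.6%) rose and 2440 (23.3%) fell in HPNE, whereas 965 (9.21%) rose and 1105 (10.5%) fell in HPDE. The treated and untreated libraries did not overlap for 50.0% of genes in HPNE and 40.4% in HPDE. Over all genes the SD of the responses was 0.56 in HPNE and 0.18 in HPDE, and 756 genes changed by a log2 response of at least 1 in HPNE against 31 in HPDE. In 3699 of the 3995 genes the larger response was that of HPNE. The median line difference over all genes was 0.0031. With median-of-ratios scaling in place of the FPKM scaling, 4366 genes were called, 1706 higher and 2660 lower in HPDE, and the median was -0.065.

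**Figure D1:**
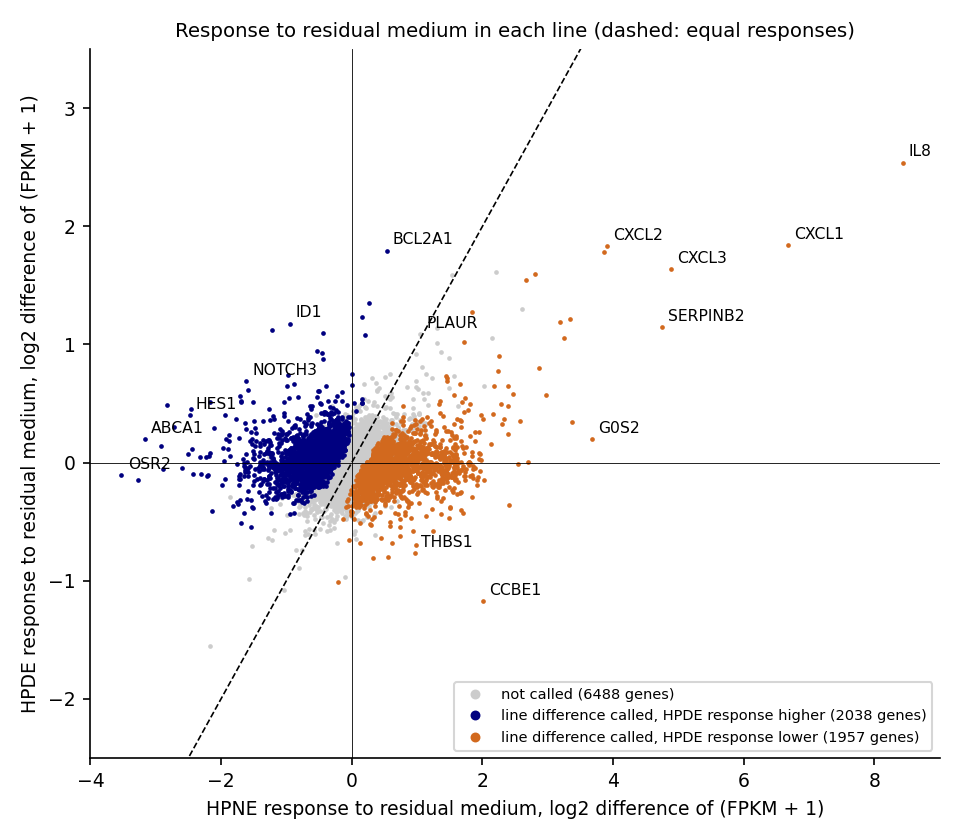
Each point is 1 of 10483 genes, with its HPNE response on the x axis and its HPDE response on the y axis (log2 differences of FPKM + 1, axes not to the same scale). Colour gives the line difference: blue higher in HPDE (2038 genes), orange lower in HPDE (1957 genes), grey not called. The cloud is wide along x and narrow along y, and IL8, CXCL1 and CXCL3 lie far to the right below the dashed line of equal responses.

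A line difference of at least 1 in size was called for 734 genes (317 higher and 417 lower in HPDE), and of at least 2 for 63. Across genes the responses of the lines had a Pearson r of 0.214 and a Spearman rho of 0.142, a description only, since genes of a library share its depth and scaling. Of the genes called within both lines, 665 moved in the same direction and 285 in opposite directions. For 4142 genes the 95% interval of the line difference lay inside -0.5 to 0.5, and 263 of these were called in the same direction in both lines. Without the third replicates of both HPNE groups, 3851 of the 3995 calls remained in the same direction, and 5757 genes were called in all. Of these 5757, 2562 were higher and 3195 lower in HPDE, out of 10483 genes tested. Counts of list members without these replicates stand beside those numbers.

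The neutrophil chemokines showed the widest gap. IL8 (CXCL8), CXCL1, CXCL2 and CXCL3 are small secreted proteins that recruit neutrophils through the receptor CXCR2. They lie on chromosome 4, at chr4:74606223-74609433, chr4:74735110-74736959, chr4:74962752-74965010 and chr4:74902306-74904524 in hg19 coordinates. All 4 tested members of this list rose in both lines, and for all 4 the rise was smaller in HPDE on the log2 scale. Their starts are printed because 1 short run of letters is common to all 4. The windows hold 250 bases before and 50 bases after the gene start, from RefSeq (GRCh38.p14), read along the gene's strand: chr4:73740319-73740618 (plus strand), chr4:73869143-73869442 (plus), chr4:74099146-74099445 (minus) and chr4:74038640-74038939 (minus). Capitals mark GGAATTTCC, a form of the NF-kB binding motif searched on both strands and chosen after the windows had been seen.
IL8: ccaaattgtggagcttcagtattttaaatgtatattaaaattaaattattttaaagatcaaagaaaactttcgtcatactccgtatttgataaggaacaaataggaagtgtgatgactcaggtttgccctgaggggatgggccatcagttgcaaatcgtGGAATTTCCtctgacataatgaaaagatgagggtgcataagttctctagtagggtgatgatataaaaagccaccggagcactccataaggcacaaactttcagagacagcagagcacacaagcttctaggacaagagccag
CXCL1: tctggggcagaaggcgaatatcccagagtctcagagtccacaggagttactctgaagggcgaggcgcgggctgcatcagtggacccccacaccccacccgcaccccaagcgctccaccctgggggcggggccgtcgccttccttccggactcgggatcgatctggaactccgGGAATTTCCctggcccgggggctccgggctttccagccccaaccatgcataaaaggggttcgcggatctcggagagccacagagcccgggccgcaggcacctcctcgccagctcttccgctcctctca
CXCL2: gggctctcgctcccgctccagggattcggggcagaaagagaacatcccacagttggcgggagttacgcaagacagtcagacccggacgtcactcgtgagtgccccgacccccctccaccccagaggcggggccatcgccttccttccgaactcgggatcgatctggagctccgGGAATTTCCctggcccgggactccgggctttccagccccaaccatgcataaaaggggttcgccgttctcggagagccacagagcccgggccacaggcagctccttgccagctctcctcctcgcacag
CXCL3: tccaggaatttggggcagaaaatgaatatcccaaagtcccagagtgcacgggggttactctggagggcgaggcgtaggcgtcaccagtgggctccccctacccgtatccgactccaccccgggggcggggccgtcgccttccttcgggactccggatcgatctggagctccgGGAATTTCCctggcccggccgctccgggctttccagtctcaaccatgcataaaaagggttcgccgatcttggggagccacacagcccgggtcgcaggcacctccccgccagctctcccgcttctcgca
The 9 letters begin 91 bases before the start of IL8, 78 before that of CXCL1, 77 before that of CXCL2 and 78 before that of CXCL3. They occur in 162 of 35116 promoter windows of this length (0.461%). The consensus chosen earlier (GGGA, any 2 bases, TTCC) was in 3 of the 4 windows, all but that of IL8, and in 1.61% of all windows; it can overlap the capitals. A match describes the letters and is no evidence of binding.

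IL8 was at 2.31, 2.64 and 4.70 FPKM in the 3 untreated HPNE libraries and at 1799, 1818 and 859 FPKM in the 3 residual medium libraries. In HPDE it went from 31.2, 36.5 and 37.3 to 175, 226 and 226 FPKM. The groups did not overlap in either line, and HPDE started higher and ended lower than HPNE, with HPNE residual medium replicate 3 the lowest of its group. The ratio of means was 464 in HPNE and 5.98 in HPDE, and the line difference was -5.89 (SE 0.32, adjusted p = 3.92e-10). CXCL1 rose in HPNE from 0.736, 0.785 and 0.811 to 177, 138 and 243 FPKM and in HPDE from 20.2, 29.2 and 30.4 to 98.9, 95.8 and 94.3 FPKM, a line difference of -4.84 (SE 0.35, adjusted p = 1.68e-08). CXCL3 rose in both lines too, with 0.394, 0.467 and 0.574 and then 63.5, 59.5 and 20.0 FPKM in HPNE, 4.16, 5.67 and 6.60 and then 14.2, 20.8 and 22.9 FPKM in HPDE, and a line difference of -3.24 (SE 0.40, adjusted p = 9.31e-06). For both genes HPDE was above HPNE in every untreated library. CXCL1, CXCL2 and CXCL3 are close paralogs, and how reads shared by them were counted is not given in the sources used here.

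CXCL2 differed from the other three in that HPDE also ended higher. It went from 1.14, 0.602 and 1.03 to 33.6, 31.5 and 19.6 FPKM in HPNE and from 44.5, 55.5 and 62.6 to 174, 200.1 and 209 FPKM in HPDE. On the log2 scale the rise was smaller in HPDE (line difference -2.07, SE 0.30, adjusted p = 5.62e-05), while on the linear scale it was larger there, 140.0 FPKM against 27.3. In untreated cells the mean was higher in HPDE for 4 of the 4 chemokines, and in residual medium for CXCL2 only. The list's median line difference was -4.04, and its 4 of 4 calls stand beside 18.7% of all genes called lower in HPDE. Of the other members, CXCL5 reached 1 FPKM in HPNE alone, where it rose from 0.747 ± 0.208 to 136 ± 64.9 FPKM (SD, n = 3), and CXCL6 reached it in neither line.

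**Figure D2:**
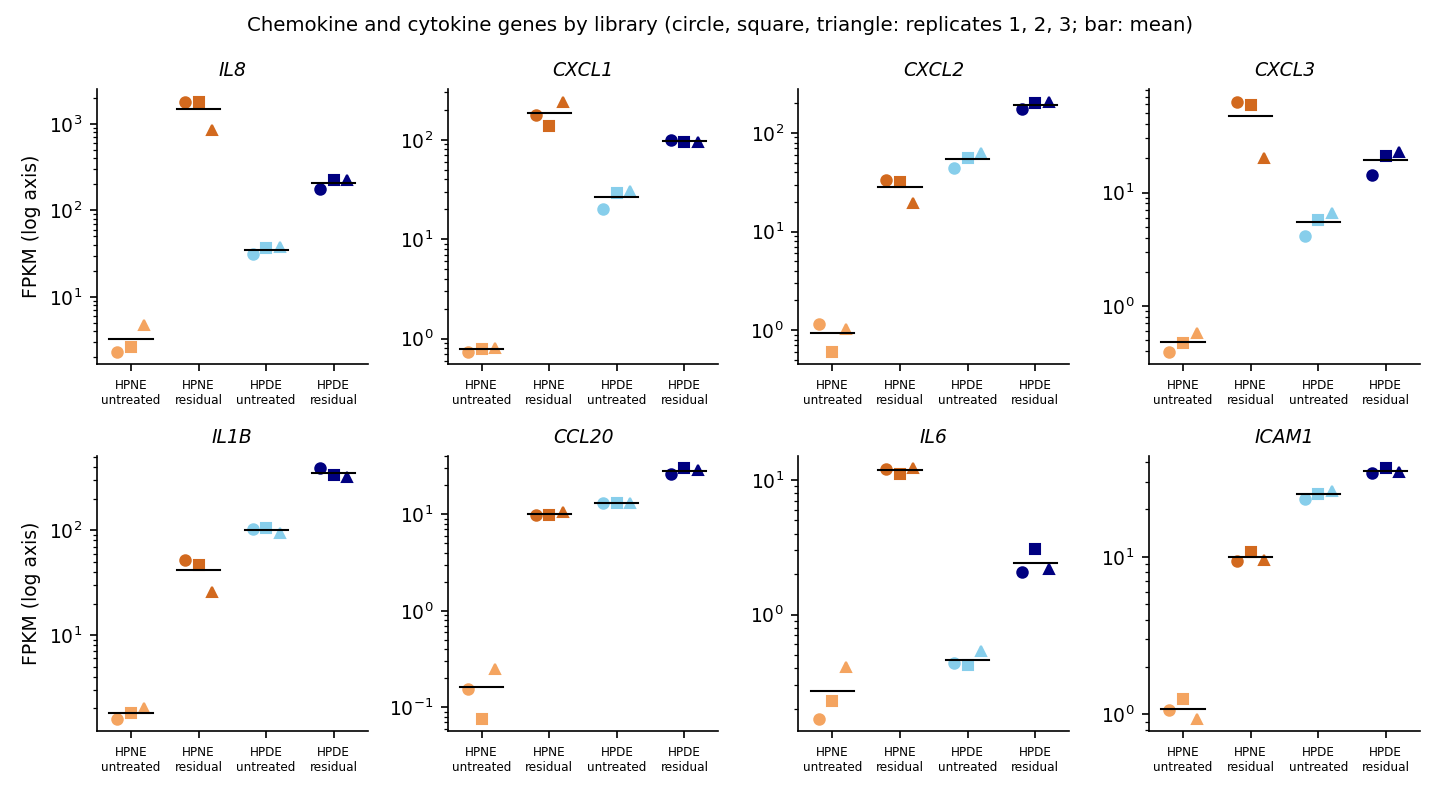
FPKM on a log axis in each of the 12 libraries, in 4 groups (x axis), with replicates 1, 2 and 3 as circle, square and triangle and a bar at the mean. In all 8 genes the residual medium libraries lie above the untreated ones of the same line, the untreated HPDE libraries lie above the untreated HPNE ones, and the step is longer in HPNE. HPDE stays above HPNE in residual medium for CXCL2, IL1B, CCL20 and ICAM1.

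Cytokines and regulators of the NF-kB pathway rose in both lines, mostly further in HPNE. Of 24 listed genes 20 were tested; 18 rose in HPNE and 16 rose in HPDE, and none fell in either. The line difference was called lower in HPDE for 12 and higher for 1, with a median of -0.86. Of all genes 19.6% rose in HPNE and 9.21% in HPDE, and 18.7% were called lower and 19.4% higher in HPDE. The order depends on the scale: the change in FPKM itself was larger in HPDE for 11 of the 20, and 17 of them were more abundant in untreated HPDE than in untreated HPNE.

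Among the ligands, IL1B, the secreted cytokine interleukin-1 beta, rose from 1.60, 1.82 and 2.02 to 52.0, 46.6 and 26.0 FPKM in HPNE and from 102, 104 and 95.2 to 391, 335 and 324 FPKM in HPDE. The groups did not overlap in either line; the line difference was -2.08 (SE 0.27, adjusted p = 2.08e-05), while the gain in FPKM was 249 in HPDE and 39.7 in HPNE. CCL20, which attracts lymphocytes and dendritic cells, went from 0.155, 0.0768 and 0.252 to 9.87, 9.74 and 10.5 FPKM in HPNE and from 13.0, 13.1 and 13.1 to 26.4, 29.9 and 28.4 FPKM in HPDE. Its line difference was -2.20 (SE 0.20, adjusted p = 3.76e-07), from an HPNE baseline that averaged 4.67 reads per library. IL6, a cytokine of the acute-phase response, was the one of these that ended higher in HPNE: 0.169, 0.230 and 0.411 and then 12.2, 11.1 and 12.2 FPKM there, 0.434, 0.419 and 0.538 and then 2.07, 3.07 and 2.17 FPKM in HPDE. Its line difference was -2.12 (SE 0.43, adjusted p = 0.00103), and voom on the recovered reads gave -3.12 with an adjusted p of 0.0584.

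The adhesion molecule ICAM1, which binds leukocyte integrins, rose from 1.06, 1.25 and 0.942 to 9.42, 10.8 and 9.61 FPKM in HPNE and from 23.3, 25.2 and 26.2 to 33.9, 36.5 and 34.7 FPKM in HPDE, a line difference of -1.92 (SE 0.13, adjusted p = 4.81e-09). Of the feedback regulators and subunits, TNFAIP3 (the deubiquitinase A20) had a line difference of -1.74 ± 0.18 (here and below, ± after a line difference is its SE), RELB -1.30 ± 0.14 and NFKB2 -1.18 ± 0.11, each lower in HPDE. NFKBIA, which encodes the inhibitor IkB-alpha, had -0.34 ± 0.24 and was not called (adjusted p = 0.275). SOD2, mitochondrial superoxide dismutase, rose in both lines and was not called either (-0.83, SE 0.41, adjusted p = 0.118); its value without the third HPNE replicates was -0.29. TNFAIP2 was the 1 member of the list with a higher response in HPDE, 0.68 (SE 0.20, adjusted p = 0.0116).

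The genes named for the largest negative line differences also included SERPINB2, G0S2, IL7R, SERPINB7 and SLC7A2, which rose in HPNE. SERPINB2, an inhibitor of urokinase, rose from 0.899, 1.24 and 3.58 to 100.3, 95.9 and 37.9 FPKM in HPNE and from 43.2, 47.4 and 51.7 to 139, 94.1 and 91.3 FPKM in HPDE (line difference -3.60, SE 0.47, adjusted p = 1.84e-05). G0S2, an inhibitor of fat breakdown, went from 9.36, 10.7 and 13.6 to 189.9, 199.5 and 94.7 FPKM in HPNE. In HPDE, where it was abundant throughout, it went from 1008, 1065 and 1040.0 to 1263, 1116 and 1198 FPKM (line difference -3.47, SE 0.28, adjusted p = 6.08e-08). On the linear scale its gain was much the same, 150.1 FPKM in HPNE and 154.5 FPKM in HPDE. IL7R, the interleukin-7 receptor chain, had a line difference of -2.40 ± 0.40, SERPINB7 one of -2.69 ± 0.35, and SLC7A2, a carrier of cationic amino acids, one of -2.76 ± 0.24. IL7R also rose in HPDE, where SERPINB7 was not called and SLC7A2 fell. The rule that named these 5 took only genes whose groups were apart in the line of larger response.

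The 5 genes named because they were called as rising in HPDE, were not called in HPNE and had the largest HPDE responses were BCL2A1, SOCS3, SERPINB1, NRIP1 and HES4. BCL2A1, an anti-apoptotic BCL2 relative, was at 0.781, 0.648 and 1.06 and then 1.85, 2.37 and 0.923 FPKM in HPNE, with overlapping groups, and rose from 1.38, 1.77 and 2.31 to 7.88, 8.56 and 9.73 FPKM in HPDE. Its line difference was 1.26 (SE 0.24, adjusted p = 7.13e-04). SOCS3, which inhibits JAK-STAT signalling, was at 9.76, 9.89 and 6.80 and then 9.75, 9.74 and 12.8 FPKM in HPNE and rose from 6.81, 6.68 and 7.76 to 18.3, 19.0 and 21.6 FPKM in HPDE (1.08, SE 0.21, adjusted p = 7.49e-04). The HPNE groups of SOCS3 overlapped and those of HPDE did not. SERPINB1, an inhibitor of neutrophil elastase, had a line difference of 1.08 ± 0.10, NRIP1, a nuclear receptor corepressor, one of 0.88 ± 0.09, and HES4 one of 1.37 ± 0.25; the HPNE groups of these 3 were apart.

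Antimicrobial and squamous genes could hardly be compared, since most were expressed in HPDE alone. Of 14 antimicrobial genes 2 were tested: C3, complement component 3 (-1.35, SE 0.49, adjusted p = 0.0358; -0.67 without the third HPNE replicates, no longer called), and SAA1, an acute-phase protein (-0.17, SE 0.45, adjusted p = 0.788; 0.67 without them, adjusted p = 0.0442, a change of sign). Of those found in HPDE alone, LCN2 (lipocalin-2, which withholds iron from bacteria) rose from 10.7 ± 1.28 to 76.1 ± 2.03 FPKM. DEFB4A (a beta-defensin with a near-identical gene copy, so its level is uncertain) rose from 1.18 ± 0.503 to 16.6 ± 4.51 FPKM, and PI3 (elafin, an elastase inhibitor) from 2.64 ± 0.423 to 19.1 ± 4.74 FPKM; all 3 averaged under 0.1 FPKM in both HPNE groups. None of the 14 squamous genes was tested and 10 were found in HPDE alone. Among them SPRR2A, a cornified envelope protein, rose from 1.84 ± 0.242 to 21.1 ± 2.90 FPKM, whereas the basal keratin KRT5 fell from 1804 ± 58.7 to 937 ± 91.7 FPKM.

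Genes of mitosis and DNA replication rose in HPNE. All 26 mitosis genes were called as rising in HPNE (19.6% of all genes). In HPDE 1 rose and 7 fell, beside 9.21% and 10.5% of all genes. The line difference was called lower in HPDE for 26 of 26 (median -1.70, range -2.13 to -1.49), beside 18.7% of all genes. For 25 of the 26, however, the untreated and treated HPNE libraries overlapped, whereas they were apart for 50.0% of all genes. Without the third HPNE replicates the median line difference of the list was -2.61. MKI67, which encodes the proliferation antigen Ki-67, was at 1.85, 1.96 and 6.78 FPKM in untreated HPNE and at 20.6, 20.1 and 3.91 FPKM in residual medium, and in HPDE it fell from 37.7, 36.3 and 37.6 to 26.3, 26.5 and 29.4 FPKM. Untreated replicate 3 was thus the highest of its group and residual medium replicate 3 the lowest of its own, below that untreated library. The line difference of MKI67 was -2.13 (SE 0.58, adjusted p = 0.00863), and -3.31 without the third HPNE replicates.

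CDK1, the kinase that drives entry into mitosis, had 6.07, 5.54 and 15.8 and then 52.8, 58.3 and 13.3 FPKM in HPNE against 90.8, 81.7 and 84.8 and then 76.3, 87.4 and 80.9 FPKM in HPDE. Its line difference was -2.03 (SE 0.57, adjusted p = 0.00994), and the groups overlapped in both lines. TOP2A, the topoisomerase that untangles chromosomes, went from 11.3, 12.2 and 28.8 to 81.5, 80.2 and 21.7 FPKM in HPNE and from 78.8, 71.0 and 73.6 to 57.7, 65.3 and 63.2 FPKM in HPDE (-1.91, SE 0.50, adjusted p = 0.00661). In each of these 3 genes the residual medium replicates 1 and 2 of HPNE lay above all untreated HPNE libraries and replicate 3 did not. Even after the rise the mean of HPNE stayed below that of HPDE for 25 of the 26 genes. Fewer cells of a kind and less RNA per cell cannot be told apart in bulk libraries.

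Windows around the starts of 3 mitosis genes are printed to show elements that most, though not all, matched windows of the list hold. Capitals mark the CCAAT box and the cell cycle homology region (CHR, letters TTTGAA), searched on both strands, so that ATTGG and TTCAAA are their reverse forms; the windows are chr15:59104896-59105195 (plus strand), chr17:40417847-40418146 (minus) and chr16:23678639-23678938 (plus) in RefSeq GRCh38.p14.
CCNB2: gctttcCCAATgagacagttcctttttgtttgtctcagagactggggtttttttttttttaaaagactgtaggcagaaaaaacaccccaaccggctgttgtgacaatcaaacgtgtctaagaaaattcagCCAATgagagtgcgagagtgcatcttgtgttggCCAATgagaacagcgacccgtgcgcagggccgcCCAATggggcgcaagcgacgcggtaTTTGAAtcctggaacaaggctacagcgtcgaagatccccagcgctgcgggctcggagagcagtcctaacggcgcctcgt
TOP2A: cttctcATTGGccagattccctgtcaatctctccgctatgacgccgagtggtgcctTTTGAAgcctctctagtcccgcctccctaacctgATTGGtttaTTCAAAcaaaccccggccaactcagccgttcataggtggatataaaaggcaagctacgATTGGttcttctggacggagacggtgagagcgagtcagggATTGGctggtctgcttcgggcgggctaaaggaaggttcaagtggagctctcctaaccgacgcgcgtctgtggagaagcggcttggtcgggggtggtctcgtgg
PLK1: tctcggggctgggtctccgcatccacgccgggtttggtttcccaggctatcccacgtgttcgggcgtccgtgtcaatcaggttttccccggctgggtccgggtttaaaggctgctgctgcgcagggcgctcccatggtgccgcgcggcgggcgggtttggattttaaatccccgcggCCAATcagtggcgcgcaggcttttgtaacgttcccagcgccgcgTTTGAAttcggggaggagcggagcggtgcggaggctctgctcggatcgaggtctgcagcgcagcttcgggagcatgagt
Of the 26 mitosis genes 21 matched the promoter table; 85.7% of these windows hold CCAAT, against 34.6% of all windows, and 71.4% hold the CHR, against 15.2%. Among 23 matched DNA replication genes the shares were 60.9% and 4.35%. These shares describe letters, and nothing is drawn from them about the factors that bind there.

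In the DNA replication list the HPNE groups were apart for 16 of the 26 tested genes, beside 50.0% of all genes. In HPNE 24 rose, beside 19.6% of all genes, and in HPDE 3 rose and 1 fell, beside 9.21% and 10.5%. The line difference was called lower in HPDE for 24 (median -1.24), beside 18.7% of all genes. Without the third HPNE replicates the median was -1.88. RRM2, a subunit of ribonucleotide reductase that makes DNA precursors, went from 6.18, 5.49 and 15.0 to 84.5, 86.1 and 18.7 FPKM in HPNE and was at 105, 99.8 and 107 and then 95.4, 109 and 105 FPKM in HPDE. Its line difference was -2.55 (SE 0.63, adjusted p = 0.00446); the HPNE groups did not overlap, though the third libraries came close. MCM10, an initiation factor, had a line difference of -1.73 ± 0.41, UHRF1, which maintains DNA methylation, one of -1.62 ± 0.39, and TK1, thymidine kinase, one of -1.64 ± 0.50, which was lost when HPNE residual medium replicate 1 or 2 was left out. PCNA, the sliding clamp, was not called (-0.38, SE 0.21, adjusted p = 0.15) and was called without the third HPNE replicates (-0.75).

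**Figure D3:**
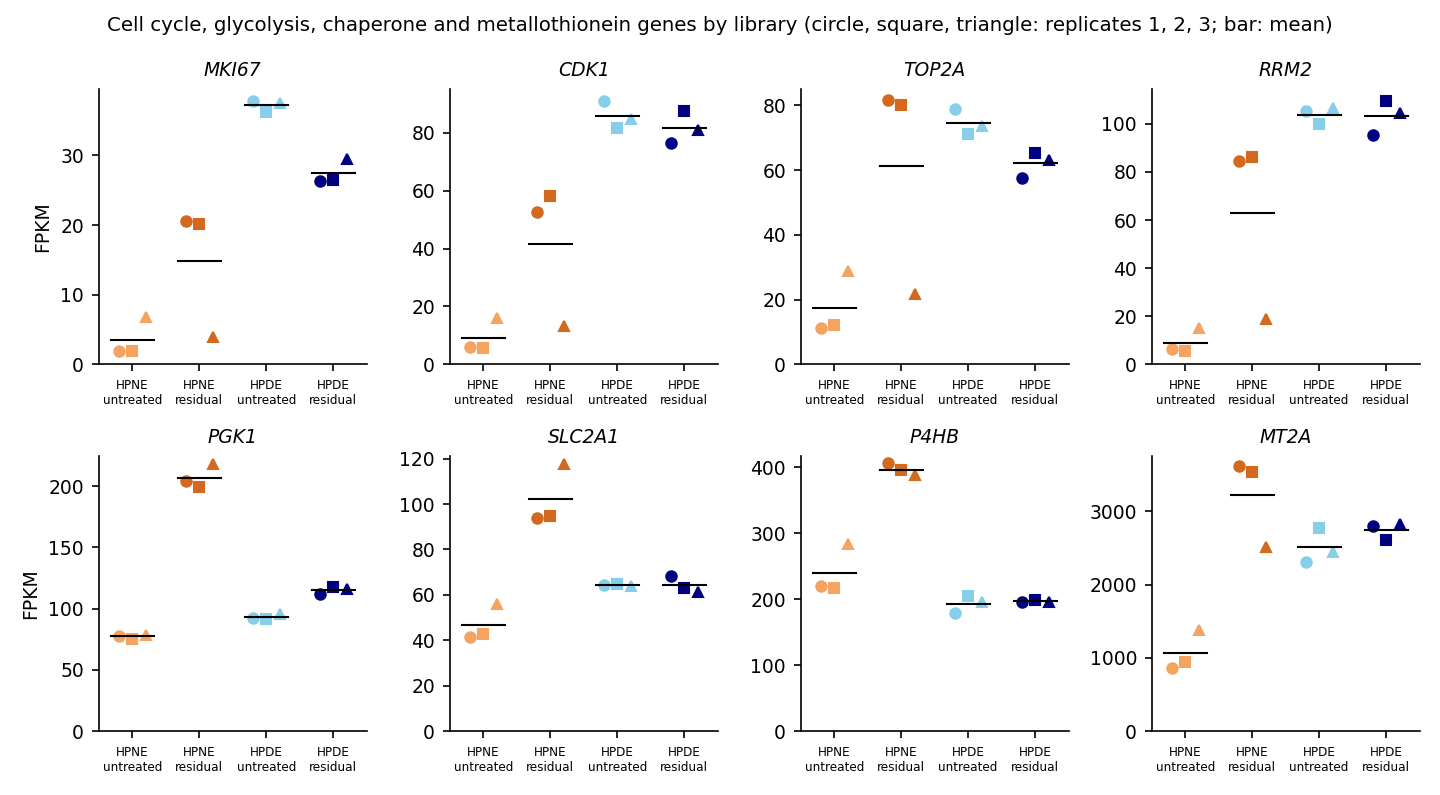
FPKM on a linear axis from 0 in each of the 12 libraries, in 4 groups (x axis), with replicates 1, 2 and 3 as circle, square and triangle and a bar at the mean. For MKI67, CDK1, TOP2A and RRM2 the HPNE residual medium triangle lies far below its mates, and for RRM2 alone of these it stays above all untreated HPNE libraries. PGK1, SLC2A1, P4HB and MT2A rise in HPNE in all 3 replicates and differ less between the HPDE groups.

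Of 18 tested glycolysis and hypoxia genes 13 rose in HPNE and 8 in HPDE and none fell, beside 19.6% and 9.21% of all genes rising. The HPNE groups were apart for 14, against 50.0% of all genes. The line difference was called lower in HPDE for 12, against 18.7% of all genes, and higher for 0 (median -0.79). Without the third HPNE replicates the calls were 9 lower and 3 higher. PGK1, a glycolytic kinase, went from 77.9, 75.2 and 78.8 to 204, 199 and 218 FPKM in HPNE and from 92.3, 91.5 and 96.0 to 112, 118 and 116 FPKM in HPDE, apart in both lines (-1.11, SE 0.09, adjusted p = 6.08e-08). The glucose carrier SLC2A1 rose from 41.7, 42.9 and 55.9 to 93.8, 94.9 and 118 FPKM in HPNE, while in HPDE its libraries overlapped, with 64.4, 64.6 and 63.8 and then 68.5, 62.9 and 61.4 FPKM (-1.11, SE 0.14, adjusted p = 9.18e-06). ENO1 (enolase) had a line difference of -1.16 ± 0.10 and PDK1, which restrains entry of pyruvate into mitochondria, one of -1.18 ± 0.19. ALDOA (aldolase) was not called (-0.29 ± 0.14, adjusted p = 0.103).

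The next list holds chaperones of the endoplasmic reticulum, which fold secreted proteins, with genes of protein degradation and regulators such as XBP1 and ATF6. Of its 22 tested genes 13 rose in HPNE and 3 in HPDE, beside 19.6% and 9.21% of all genes. The line difference was lower in HPDE for 12 and higher for 1 (median -0.45), beside 18.7% and 19.4%. P4HB, a disulfide isomerase, rose from 221, 217 and 283 to 406, 395 and 388 FPKM in HPNE and was at 179, 205 and 195 and then 196, 198 and 196 FPKM in HPDE, where the libraries overlapped (-0.70, SE 0.12, adjusted p = 2.20e-04). PDIA4 had a line difference of -0.86 ± 0.22, HSP90B1 of -0.69 ± 0.20 and MANF of -0.76 ± 0.26. The MANF call was lost with no filter, with the 12 libraries alone and when any of several single libraries was left out. HSPA5, the chaperone BiP, had -0.55 ± 0.18. CALR (calreticulin) was not called (-0.63, SE 0.31, adjusted p = 0.111) and had -1.12 without the third HPNE replicates, where it was. DNAJB9 was the 1 member higher in HPDE (0.36 ± 0.14).

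With all libraries kept, targets of ATF4, the transcription factor of the amino acid and integrated stress responses, were called about as often as genes in general. Of 29 tested, 4 had a higher and 5 a lower response in HPDE, beside 19.4% and 18.7% of all genes, with a median of 0.09. Without the third HPNE replicates 14 were higher and 5 lower, beside 2562 and 3195 of the 10483 genes. GDF15, a stress-induced hormone, fell in HPNE from 37.3, 35.0 and 20.9 to 6.38, 8.36 and 13.3 FPKM and was at 1.39, 1.62 and 1.11 and then 1.64, 1.16 and 1.20 FPKM in HPDE (1.62, SE 0.31, adjusted p = 6.31e-04). STC2, a secreted glycoprotein, rose in HPNE (-1.22, SE 0.29, adjusted p = 0.00362). SLC7A1 had -1.01 ± 0.26 and SLC7A5 -1.23 ± 0.43; the call of SLC7A5 was lost in several settings. Of 12 heat shock genes 1 was higher (HSPB1, 0.44 ± 0.14) and 1 lower (HSP90AA1, -0.84 ± 0.23) in HPDE, fewer than the 19.4% and 18.7% of all genes. The HSPB1 call was lost with size factors and in 3 of the fits that left out 1 HPDE library, and without the third HPNE replicates 1 gene was higher and 4 were lower. Among 3 tested genes of metal handling, the metal-binding proteins MT2A (-1.48, SE 0.25, adjusted p = 2.82e-04) and MT1E (-1.60 ± 0.14) were lower in HPDE and the zinc exporter SLC30A1 higher (0.56 ± 0.20). The SLC30A1 call was lost with no filter, with size factors, with the 12 libraries alone and without most single libraries. MT2A was at 857, 939.8 and 1386 FPKM in untreated HPNE and at 3619, 3530.0 and 2507 FPKM after residual medium, against 2313, 2775 and 2443 and then 2805, 2609 and 2826 FPKM in HPDE, where the groups overlapped.

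**Figure D4:**
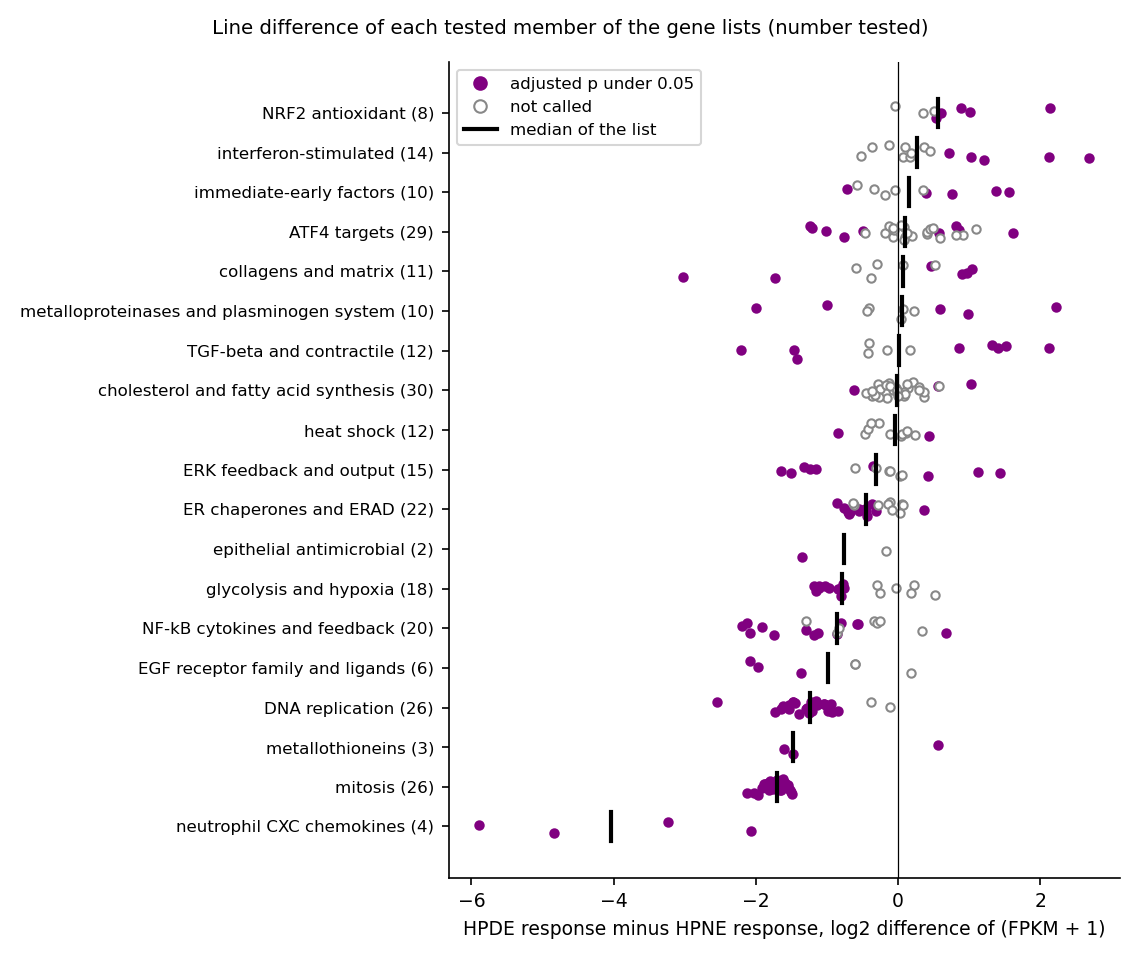
Each point is the line difference of 1 tested member of a gene list (rows, with the number tested), purple if called and open if not; the black bar is the list's median, and the vertical spread within a row has no meaning. The chemokine list has the lowest median (-4.04), followed by mitosis (-1.70), and the NRF2 list the highest (0.57), against 0.0031 for all genes.

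Of 6 tested receptors and ligands of the EGF family, 4 rose and 1 fell in HPNE, beside 19.6% and 23.3% of all genes. The line difference was called lower in HPDE for 3 and higher for 0 (median -0.99), beside 18.7% and 19.4% of all genes. The ligand EREG rose from 8.88, 9.31 and 16.1 to 56.1, 56.3 and 67.7 FPKM in HPNE and from 135, 127 and 130.2 to 159, 179.7 and 169.7 FPKM in HPDE (-1.97, SE 0.27, adjusted p = 3.11e-05). NRG1, a ligand of ERBB3, rose in HPNE and fell in HPDE (-2.08, SE 0.50, adjusted p = 0.00392). AREG was not called (-0.61, SE 0.73, adjusted p = 0.527) and the receptor ERBB2 had 0.18 ± 0.09. Downstream, of 15 ERK feedback and output genes 6 were lower and 3 higher in HPDE, beside the same 18.7% and 19.4%. Without the third HPNE replicates 9 were lower and 3 higher, beside 3195 and 2562 of the 10483 genes. IER3 had -1.64 ± 0.16, the phosphatase DUSP5 -1.50 ± 0.33 and the AP-1 subunit FOSL1 -1.32 ± 0.38, while the inhibitor SPRY1 had 1.43 ± 0.31. Of 10 immediate-early factors 4 were higher in HPDE, among them EGR2 (1.57 ± 0.36) and JUND (1.38 ± 0.36), beside 19.4% of all genes. FOSL2 was the 1 lower member (-0.72 ± 0.23), beside 18.7%. MYC was not called (-0.18 ± 0.12, adjusted p = 0.241).

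Matrix genes were called in both directions. TNC (tenascin-C), a matrix protein of wounds, went from 0.558, 0.547 and 7.65 to 45.8, 40.0 and 10.9 FPKM in HPNE and from 14.4, 14.7 and 15.2 to 17.9, 19.1 and 20.1 FPKM in HPDE. Its line difference was -3.02 (SE 0.88, adjusted p = 0.0115), and HPNE replicate 3 was the highest untreated and the lowest treated library, with 7.65 against 10.9 FPKM. COL1A1, the main chain of type I collagen, fell in HPNE from 4337, 4277 and 3731 to 1896, 1876 and 3498 FPKM and was at 2.49, 3.45 and 2.76 and then 2.94, 2.81 and 5.03 FPKM in HPDE (1.03, SE 0.30, adjusted p = 0.011). COL4A1, of basement membranes, had 0.97 ± 0.22. Of 11 tested matrix genes 4 were higher and 2 lower in HPDE, beside 19.4% and 18.7% of all genes, and without the third HPNE replicates 5 and 4; the other 14 of the list were found in HPNE alone, where COL3A1 fell from 1599 ± 417 to 675 ± 407 FPKM and POSTN (periostin) from 178 ± 67.8 to 43.6 ± 4.12 FPKM.

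The collagenase MMP1 rose from 57.2, 54.2 and 100.1 to 856, 819.8 and 343 FPKM in HPNE and from 17.7, 16.1 and 15.8 to 58.1, 32.7 and 31.1 FPKM in HPDE, apart in both lines (-1.99, SE 0.39, adjusted p = 8.74e-04). MMP3 (stromelysin-1) reached 1 FPKM in HPNE alone and rose there from 0.231 ± 0.0777 to 18.7 ± 9.04 FPKM. TIMP3, an inhibitor of metalloproteinases, fell in HPNE from 4.93, 4.51 and 3.90 to 0.648, 0.610 and 0.757 FPKM and rose in HPDE from 11.9, 11.4 and 9.88 to 18.0, 15.3 and 15.6 FPKM (2.22, SE 0.17, adjusted p = 2.66e-08). MMP14, a membrane-bound metalloproteinase, had 0.98 ± 0.22. Of 10 tested genes of the protease list 3 were higher and 2 lower in HPDE, near the 19.4% and 18.7% of all genes, and without the third HPNE replicates 4 and 3.

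Among 12 tested genes of TGF-beta signalling and the contractile apparatus, 5 were higher and 3 lower in HPDE, beside 19.4% and 18.7% of all genes. CYR61, a matricellular protein, rose from 61.0, 62.1 and 156 to 549, 558 and 416 FPKM in HPNE and from 253, 272 and 279 to 330.0, 345 and 354 FPKM in HPDE (-2.21, SE 0.51, adjusted p = 0.00302), and its relative CTGF had -1.47 ± 0.44. TGFBI, a secreted TGF-beta target, had 1.52 (SE 0.33, adjusted p = 0.00175): it rose in HPDE from 109.5, 122 and 116 to 169, 168 and 171 FPKM, while the HPNE libraries overlapped, with 3502, 3428 and 1986 and then 1143, 1176 and 2371 FPKM. The ligand TGFB1 had 1.40 ± 0.22, and TPM2 (tropomyosin) was not called (-0.42 ± 0.20, adjusted p = 0.097).

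The largest differences in favour of HPDE came from genes that fell in HPNE and were steady or slightly up in HPDE. OSR2, a zinc-finger transcription factor, fell in HPNE from 33.4, 31.6 and 10.5 to 0.596, 0.378 and 2.85 FPKM and was at 5.18, 6.79 and 5.49 and then 6.21, 4.93 and 4.87 FPKM in HPDE. The HPNE groups were apart and the HPDE groups overlapped, with a line difference of 3.42 (SE 0.63, adjusted p = 5.06e-04). ABCA1, the pump that exports cholesterol to lipoproteins, fell in HPNE from 56.6, 56.9 and 28.9 to 2.30, 2.72 and 10.3 FPKM; HPDE had 0.625, 0.727 and 0.740 and then 0.869, 1.06 and 0.906 FPKM (3.36, SE 0.52, adjusted p = 1.07e-04). SNAI1, a repressor of E-cadherin, fell in HPNE from 20.4, 23.1 and 7.70 to 0.608, 0.824 and 2.58 FPKM and was at 1.89, 2.16 and 2.02 and then 2.32, 2.18 and 2.49 FPKM in HPDE (3.05, SE 0.52, adjusted p = 2.70e-04). In these 3 genes the third untreated HPNE library was the lowest of its group and the third treated one the highest. ABCA1 averaged 0.698 FPKM in untreated and 0.947 FPKM in residual medium HPDE. It met the 1 FPKM rule through the HPDE vesicle libraries (means 3.61 FPKM with PANC-1 and 2.24 FPKM with PPCL-68 vesicles).

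HES1, a repressor that is a target of Notch signalling, fell in HPNE from 7.43, 5.82 and 5.87 to 0.177, 0.306 and 0.479 FPKM and rose in HPDE from 12.1, 13.8 and 13.9 to 19.6, 16.1 and 17.9 FPKM, apart in both lines (2.88, SE 0.16, adjusted p = 4.94e-10). JUP, the junction protein plakoglobin, fell in HPNE from 11.0, 13.2 and 18.5 to 1.23, 0.794 and 1.90 FPKM and rose in HPDE from 137, 141 and 133 to 185, 160.1 and 161 FPKM (3.02, SE 0.27, adjusted p = 2.55e-07). MTUS1 was at 5.09, 4.92 and 4.87 FPKM in untreated HPNE and at 0.179, 0.0241 and 0.0841 FPKM in residual medium, the lowest mean of the 12 genes named for this direction, and its HPDE groups overlapped (2.56, SE 0.18, adjusted p = 6.94e-09). It met the 1 FPKM rule in HPNE only through the untreated libraries, the group where it was high. Its means with PANC-1 and PPCL-68 vesicles there were 0.856 and 0.0622 FPKM. Its fall is thus tied to how it entered. The globin CYGB had a line difference of 3.32 ± 0.43, the fatty acid binding protein FABP3 3.12 ± 0.54 and adenosine deaminase ADA 2.91 ± 0.36. For the netrin receptor UNC5B it was 2.83 ± 0.46 and for TBC1D8 2.55 ± 0.25. UNC5B averaged 0.964 FPKM in untreated and 0.887 FPKM in residual medium HPDE. It met the 1 FPKM rule through the HPDE vesicle libraries (means 1.11 FPKM with PANC-1 and 1.87 FPKM with PPCL-68 vesicles).

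Interferon-stimulated genes were higher in HPDE where they differed. Of 14 tested, 5 were called higher and 0 lower (median 0.27); 8 rose in HPDE and 5 fell in HPNE. Of all genes 19.4% were called higher, 9.21% rose in HPDE and 23.3% fell in HPNE. IFIT2, an antiviral protein that binds RNA, fell in HPNE from 12.7, 12.3 and 7.74 to 1.35, 1.33 and 2.14 FPKM and rose in HPDE from 60.4, 54.6 and 54.4 to 82.2, 84.9 and 75.6 FPKM, apart in both lines (2.69, SE 0.23, adjusted p = 1.03e-07). IFIT1 fell in HPNE from 17.1, 17.0 and 16.3 to 4.42, 3.99 and 2.78 FPKM and was at 241, 233 and 202 and then 271, 270.2 and 233 FPKM in HPDE (2.13, SE 0.29, adjusted p = 3.43e-05). IFIT3 had 1.21 ± 0.16 and the signal transducer STAT2 1.03 ± 0.19, whereas IFI6 was not called (-0.52 ± 0.45, adjusted p = 0.367).

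Targets of NRF2, the regulator of antioxidant genes, fell in HPNE for 6 of 8 tested and were called higher in HPDE for 5 (median 0.57, 0 lower), beside 23.3% and 19.4% of all genes. HMOX1, heme oxygenase-1, fell in HPNE from 159.6, 159.6 and 168 to 42.5, 54.9 and 44.4 FPKM and rose in HPDE from 3.15, 3.48 and 3.83 to 4.47, 5.06 and 4.83 FPKM (2.14, SE 0.45, adjusted p = 0.0014). NQO1, a quinone reductase, fell in HPNE from 112, 112 and 127 to 59.6, 67.3 and 43.7 FPKM and was at 39.7, 40.6 and 43.4 and then 36.1, 36.2 and 38.1 FPKM in HPDE (0.89, SE 0.19, adjusted p = 0.00148). OSGIN1 had 1.02 ± 0.18 and ME1 (malic enzyme) 0.60 ± 0.12; TXNRD1 was not called (0.51 ± 0.27, adjusted p = 0.143).

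In 285 genes the lines moved in opposite directions by their own tests: 146 fell in HPNE and rose in HPDE, and 139 rose in HPNE and fell in HPDE. ID1, an inhibitor of basic helix-loop-helix factors and a target of BMP signalling, fell in HPNE from 20.1, 18.1 and 10.4 to 7.07, 8.35 and 7.45 FPKM and rose in HPDE from 24.0, 27.8 and 20.6 to 60.0, 53.5 and 53.2 FPKM (2.12, SE 0.27, adjusted p = 1.50e-05). SOX4, a developmental transcription factor, fell in HPNE from 13.1, 13.0 and 8.62 to 5.03, 5.24 and 5.41 FPKM and rose in HPDE from 9.86, 10.1 and 9.20 to 15.5, 15.5 and 16.4 FPKM (1.64, SE 0.17, adjusted p = 1.58e-06). Both genes were less abundant in residual medium HPNE than in any HPDE library. The receptor NOTCH3 fell in HPNE from 124, 129.5 and 149 to 32.1, 32.9 and 75.4 FPKM and rose in HPDE from 0.842, 0.854 and 0.704 to 2.18, 1.61 and 1.94 FPKM (2.30, SE 0.34, adjusted p = 6.26e-05). In HPDE it met the 1 FPKM rule only with the residual medium libraries counted, the group where it was highest. Its HPDE means were 0.800 FPKM untreated, 1.91 in residual medium, 1.09 with PANC-1 and 1.00 with PPCL-68 vesicles. The rise in HPDE is thus tied to how NOTCH3 entered. FUT8, the enzyme of core fucosylation, had 1.72 ± 0.29 and the glycolipid enzyme A4GALT 1.54 ± 0.25.

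In the other direction, CCBE1, a secreted protein needed for lymphatic vessels, rose in HPNE from 4.18, 3.80 and 4.31 to 25.9, 25.3 and 11.0 FPKM and fell in HPDE from 20.6, 19.3 and 20.8 to 8.28, 8.18 and 8.86 FPKM (-3.17, SE 0.31, adjusted p = 5.57e-07). THBS1 (thrombospondin-1), a matrix protein that can activate TGF-beta, rose in HPNE from 123, 126 and 232 to 294, 294 and 313 FPKM and fell in HPDE from 173, 174 and 169 to 106, 98.9 and 97.1 FPKM (-1.73, SE 0.23, adjusted p = 2.89e-05). Untreated HPDE lay between the treated and the untreated HPNE means of THBS1, and treated HPDE below both. The epidermal growth factor receptor EGFR rose in HPNE from 17.0, 16.7 and 26.6 to 33.7, 34.6 and 32.3 FPKM and fell in HPDE from 60.3, 56.3 and 57.6 to 37.2, 36.8 and 38.1 FPKM (-1.36, SE 0.21, adjusted p = 1.07e-04), which brought its means to 33.5 and 37.4 FPKM. COL8A1 had -1.67 ± 0.25 and FILIP1L -1.51 ± 0.20. For all 10 genes named here the groups did not overlap in either line, beside 50.0% of all genes in HPNE and 40.4% in HPDE. Each line difference was still called without the third HPNE replicates, while 3851 of all 3995 calls remained in the same direction. These genes were picked for large responses called in both lines, which favours both outcomes.

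**Figure D5:**
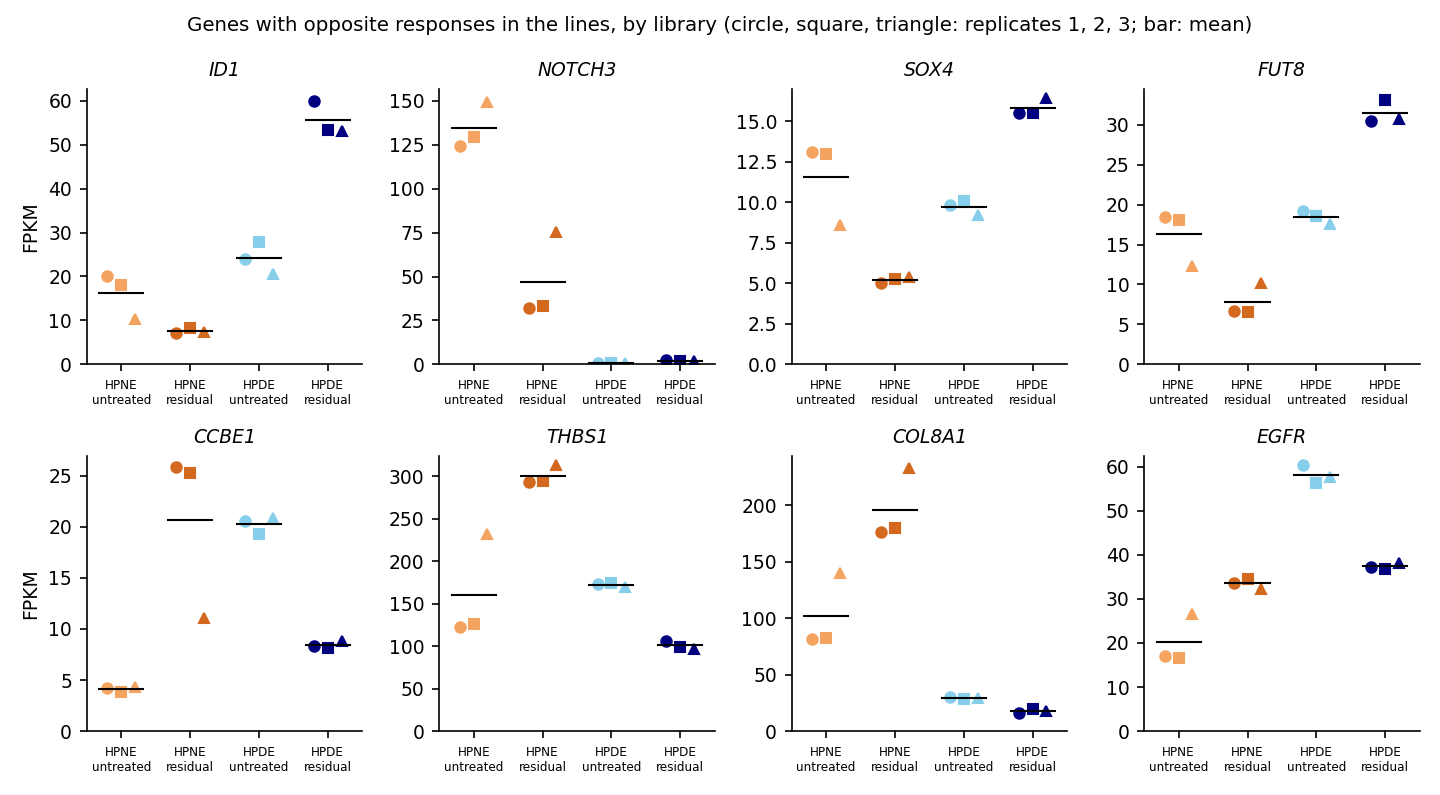
FPKM on a linear axis from 0 in each of the 12 libraries, in 4 groups (x axis), with replicates 1, 2 and 3 as circle, square and triangle and a bar at the mean. The upper genes (ID1, NOTCH3, SOX4, FUT8) fall in HPNE and rise in HPDE; the lower genes (CCBE1, THBS1, COL8A1, EGFR) rise in HPNE and fall in HPDE. NOTCH3 is near 2 FPKM or below in HPDE, so its rise there is small on this axis.

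Genes that fell in HPDE and were not called in HPNE included the imprinted PEG10, at 37.1, 34.9 and 35.5 and then 15.3, 18.2 and 18.4 FPKM in HPDE and at 7.92, 7.03 and 13.0 and then 8.64, 8.49 and 6.04 FPKM in HPNE (-0.80, SE 0.20, adjusted p = 0.00536). CAV1 (caveolin-1) fell in HPDE from 549, 519.9 and 524 to 318, 344 and 329 FPKM, while HPNE had 128, 130.0 and 202 and then 290.0, 278 and 152 FPKM with overlap (-1.30, SE 0.30, adjusted p = 0.00283). SNAI2, a repressor related to SNAI1, fell in HPDE from 70.5, 64.3 and 66.5 to 43.3, 40.6 and 42.7 FPKM and was at 107, 109 and 104 and then 94.0, 93.9 and 127 FPKM in HPNE (-0.62, SE 0.14, adjusted p = 0.00213). DKK1, a Wnt inhibitor, had -1.82 ± 0.56, and the cytoskeletal linker DST -1.35 ± 0.47, a call lost in 7 of the other settings. Part of both values came from HPNE, with responses of 1.24 for DKK1 and 0.55 for DST that were not called. Their HPDE responses were -0.58 and -0.80. The HPNE libraries overlapped in PEG10, CAV1, SNAI2, DKK1 and DST.

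Some genes rose or fell in both lines with line differences near 0. PLAUR, the urokinase receptor, rose from 37.3, 37.9 and 41.2 to 87.3, 94.8 and 64.7 FPKM in HPNE and from 36.9, 39.1 and 40.0 to 83.6, 81.8 and 84.5 FPKM in HPDE, with a line difference of 0.04 ± 0.14 and a 95% interval of -0.24 to 0.32. CFLAR, an inhibitor of death receptor signalling, went from 6.49, 6.63 and 6.42 to 10.3, 11.3 and 9.53 FPKM in HPNE and from 14.7, 14.8 and 14.5 to 22.5, 22.6 and 22.5 FPKM in HPDE; the interval of its line difference was -0.22 to 0.20. FADS2, a fatty acid desaturase, fell in both (-0.01 ± 0.16, interval -0.34 to 0.32), as did the glutamine carrier SLC38A2 (-0.07 ± 0.16, interval -0.42 to 0.27). SEC14L2, FAM219A and PLEKHN1 rose and SGK223, NFIA and C1orf192 fell in both lines with line differences between -0.04 and 0.11. Intervals of this width still allow differences of up to 0.5.

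In the cholesterol and fatty acid list few line differences were called. Of 30 tested genes 10 fell in HPNE and 18 in HPDE, none rose in either, and 2 were called higher and 1 lower in HPDE (median -0.01). Of all genes 23.3% fell in HPNE and 10.5% in HPDE, and 19.4% were called higher and 18.7% lower in HPDE. Without the third HPNE replicates 3 of the list were called higher and 6 lower, beside 2562 and 3195 of the 10483 genes. LSS, lanosterol synthase, fell from 51.4, 53.5 and 43.0 to 26.4, 26.7 and 24.6 FPKM in HPNE and from 35.2, 35.0 and 33.6 to 28.9, 25.3 and 27.1 FPKM in HPDE (0.56, SE 0.17, adjusted p = 0.0144). SREBF1, a regulator of lipid synthesis, had 1.02 (SE 0.36, adjusted p = 0.0323) with overlapping libraries in both lines, and its call was lost in some settings. The desaturase SCD fell in both lines and its line difference was not called (0.57, SE 0.41, adjusted p = 0.276).

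The members' levels in the vesicle libraries are given for reference, as means ± SD of 3 libraries, and differences from them were not tested. IL8 was at 1410.0 ± 278 FPKM in HPNE given PANC-1 vesicles, 2514 ± 264 with PPCL-68 vesicles, and 352 ± 8.49 and 174 ± 16.7 in HPDE, so that HPNE was above HPDE in all 3 treatments and below it in untreated cells. MKI67 was at 3.63 ± 0.666 and 2.19 ± 1.02 FPKM in HPNE and at 20.1 ± 1.71 and 12.8 ± 0.956 FPKM in HPDE with PANC-1 and PPCL-68 vesicles in turn. PGK1 was at 89.9 ± 6.31 and 69.5 ± 6.34 FPKM in HPNE and 84.2 ± 1.83 and 72.4 ± 0.517 FPKM in HPDE. Of the genes that moved in opposite directions, EGFR was at 46.4 ± 9.64 and 49.2 ± 7.51 FPKM in HPNE and at 91.2 ± 7.11 and 80.8 ± 5.90 FPKM in HPDE.

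After residual medium the lines were somewhat nearer to each other. The SD over genes of the gap between the HPDE and HPNE means was 1.155 in untreated and 1.026 in residual medium cells on the log2 scale. Among the 734 genes with a called line difference of at least 1, the gap was smaller in residual medium for 527 and larger for 207. The untreated libraries enter both the gap and the response, so these counts are a description and carry no test. A further 1020 genes reached 1 FPKM in HPNE alone, of which 554 were called within that line, and 1740 in HPDE alone, of which 373 were called.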

How the data were processed

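RNA-seq of 24 libraries (2 lines, 4 treatments, 3 libraries each) was analysed from the authors' deposited FPKM values, 1 table per library with symbols, gene types and lengths. Per the submitters' processing notes, CASAVA, STAR, HTSeq and DESeq2 were used with build hg19. Their roles and versions are not given in the sources used here. Per the labels' protocols the libraries do not keep strand, so reads of overlapping antisense genes cannot be told apart.

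Read numbers were recovered from the deposited FPKM and gene lengths, and 100% of values came out whole (tolerance 0.1 read). Recovered depths were 29209142 to 46490312 reads. Such counts of reads cover counting error only.

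Genes with a mean of at least 1 FPKM in both lines were fitted with limma 3.58.1 (R 4.3.3, trended variance) on log2(FPKM + 1) over 8 groups with 16 residual degrees of freedom. The contrast was the HPDE response minus the HPNE response. Responses within a line came from fits of that line's 12 libraries with 8 residual degrees of freedom. Adjusted p-values (Benjamini-Hochberg over all genes tested) under 0.05 were called, and the code was tested on simulated data. Fold changes on this scale understate changes of low genes.

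Named protein-coding genes were the 12 largest called differences per direction whose groups were apart in the line of larger response. Up to 5 protein-coding genes per direction were named for opposite, HPDE-only and like responses. Of each of 20 gene lists, up to 4 called members and the most abundant member not called were named. Gene type played no part there, and UHRF1 is listed as a processed transcript. The members and lists were chosen with earlier results of these data known. Promoters came from RefSeq (GRCh38.p14).

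Same-numbered replicates did not deviate together (correlations -0.51 to -0.39 in HPNE and -0.094 to 0.079 in HPDE), so the numbers were not used as pairs.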

Additional observations from a re-analysis of the deposited data

Results flagged for a closer look

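The residual medium response differed between HPDE and HPNE, by the test of the difference itself, in 3995 genes. The genes below were named by the rule for opposite responses, up to 5 per direction (limma, adjusted p under 0.05 in each line and in the difference). Other named genes, such as HES1, IFIT2, NRG1 and MKI67, were called in opposite directions too. The line difference on the log2(FPKM + 1) scale was 2.12 for ID1, 1.72 for FUT8, 2.30 for NOTCH3, 1.54 for A4GALT and 1.64 for SOX4, which rose in HPDE and fell in HPNE. It was -3.17 for CCBE1, -1.73 for THBS1, -1.67 for COL8A1, -1.36 for EGFR and -1.51 for FILIP1L, which fell in HPDE and rose in HPNE. With 3 libraries in each group, single libraries were not tested as outliers.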

How the results depend on the processing

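Over 9 alternatives to the processing, the number of genes whose line difference was called ran from 2699 (filter at 5 FPKM) to 5757 (replicate 3 of both HPNE groups left out). With the filter at 5 FPKM, which tests fewer genes, 1196 differences were positive and 420 had a size of at least 1. Without replicate 3 of both HPNE groups, 3195 were negative, 1321 had a size of at least 1, 6351 genes were called in HPNE, and SAA1 changed sign to 0.6745 (limma, adjusted p = 0.0442), against -0.4461 to 0.3423 when single libraries were left out. With no filter on low values, 1527 genes were called in HPDE. The cause of these shifts was not tested.

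Leaving out each of the 12 libraries in turn gave 3009 to 5244 called genes, 1607 to 2331 positive, 1319 to 2913 negative and 590 to 1053 of size at least 1. Of the 3995 calls, 2621 held in the same direction in every such fit. Calls within a line, here and in the paragraph before, cover that line's own genes (11503 in HPNE and 12223 in HPDE unless the filter was changed). The genes counted as rising or falling over all genes in the Results are among the 10483 shared by both lines. HPNE calls ran from 3044 to 6049, against 5052 with all libraries, and were 3151 and 3044 without untreated replicates 1 and 2 and 3168 and 3141 without residual medium replicates 1 and 2. HPDE calls ran from 1423 to 2110, against 2443, and were 1423 and 1617 without untreated replicates 1 and 3 and 1577 without residual medium replicate 1. With a replicate block within each line, 3917 differences were called, and all 101 named called genes stayed called. No call of these 101 genes changed sign in any alternative. They were called in 101 (pseudocount 0.1, variance by line), 100 (voom on recovered reads, where IL6 was lost), 99 (size factors), 95 (no filter) and 94 (the 12 libraries alone) cases.

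With 3 libraries per group and 1 culture per line, the intervals describe these libraries. HPNE groups varied more than HPDE groups, and the pooled variance is shared by both lines. Genes near 1 FPKM have compressed values on the log2(FPKM + 1) scale.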

Other observations

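Genes of the oxidative phosphorylation proteins encoded in mitochondrial DNA, a set chosen after the mitochondrial share of reads was seen, fell in HPNE. Of 12 tested, 11 fell in HPNE, where the treated and untreated libraries were apart for 8, beside 23.3% and 50.0% of all genes. Their HPNE responses ran from -1.45 to -0.71 (median -0.98) and their HPDE responses from -0.58 to 0.11 (median -0.05). The line difference was called higher in HPDE for 6 and lower for 0, beside 19.4% and 18.7% of all genes, with a median of 0.99. Without the third HPNE replicates 11 were called (median 1.24), and with median-of-ratios scaling 6 were. The share of reads on mitochondrial genes was 0.746 to 2.63% in HPNE and 0.872 to 1.25% in HPDE libraries, and its part in other results was not tested.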
